A study of Prunus avium with 18 samples.

Results

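The genes described here are 6 genes of sweet cherry (Prunus avium), each annotated by the study as beta glucosidase 2 after an Arabidopsis match, whose identifiers fall into 2 blocks. The chromosome 6 block holds beta glucosidase 2_9 (PAV06g0285911), 2_10 (PAV06g0285811) and 2_11 (PAV06g0285771). The chromosome 4 block holds beta glucosidase 2_14 (PAV04g0211171), 2_15 (PAV04g0211121) and 2_19 (PAV04g0211511). They were taken by name from the study's candidate genes for transport capacity, the movement of molecules from the twig into the bud, of whose tabulated entries 585 identifiers could be matched to the counts. They are 6 of the 48133 genes counted. All 6 passed the filter on low counts, as did 26248 genes in all.

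Flower buds of 'Fertard', a late-flowering cultivar with a high chilling requirement, were sampled on 6 dates of the 2017 to 2018 season and sequenced as stranded mRNA libraries. Each date had 3 biological replicates, made of independent buds from different trees, so there were 18 libraries. The study places October 17 at dormancy onset, December 8, January 3, January 15 and February 12 in endodormancy, when buds cannot grow even in warmth, and March 12 in ecodormancy, when cold weather holds them back. By the study's forcing test, however, the buds of that winter were released from dormancy only after March 12. The December labels read 17 December 2012, and the study's date of December 8 is used instead. No treatment was applied and every library came from the same cultivar, so date, bud stage and weather cannot be told apart. The deposited files hold raw read counts per gene, with 10095600 to 21023379 counts per library. By the chi-square per degree of freedom over genes, replicates 1 and 2 differed most on January 15 (22.4) and on February 12 (20.6), against 1.85 to 10.4 for the other replicate pairs. That value grows with read depth, and January 15 replicate 2 was the deepest library, so it does not measure replicate difference alone.

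Beta-glucosidases of plants mostly belong to glycoside hydrolase family 1 (GH1), enzymes that release the terminal glucose of a glucoside. Their substrates include glucosides of lignin precursors such as coniferin, defence compounds such as the cyanogenic glucosides of Prunus, stored hormone conjugates and short cell wall sugars. Genes of the family are numerous in plants and often lie next to each other as copies of one ancestor, so reads that align equally well to several copies are a known difficulty. In the study's annotation, 2_9, 2_10 and 2_11 share the description beta-glucosidase 11, 2_14 is described as beta-glucosidase 18 and 2_15 as a coniferin beta-glucosidase, all with GH1. Beta glucosidase 2_19 carries neither such a description nor a GH1 entry, so its name rests on the Arabidopsis match alone.

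The blocks are not unbroken runs of beta-glucosidases. Between the outermost members the annotation of chromosome 6 lists 12 other identifiers, 9 of them without a single read in the 18 libraries and 2 past the filter. On chromosome 4 it lists 37 others, of which 14 were never counted and 20 passed. Beta glucosidase 2_10 and 2_11 are separated by 3 identifiers, 2_10 and 2_9 by 9, 2_15 and 2_14 by 4, and 2_14 and 2_19 by 33. Levels are given as normalised read counts, CPM, which are counts brought to a common library size with TMM scaling factors. Transcript lengths were not used, so CPM of different genes are not ranked against each other. A change in level can come from fewer cells of a type or from less RNA per cell, which bulk buds cannot separate.

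Over the dates, each of the 6 members differed by the 6-date F test of edgeR's quasi-likelihood fit, with adjusted p between 1.02e-10 for 2_9 and 0.00251 for 2_19. That test was passed by 86.2% of all genes tested. A stricter rule called a gene for a pair of dates when its Benjamini-Hochberg adjusted p was under 0.05 and its log2 fold change was beyond 1 in size. Among the 15 possible pairs of dates, 5 of 6 members were called for 1 or more, against 54.3% of all genes. The members were chosen with earlier results of these data known, so this share only describes them. Beta glucosidase 2_15 was called in 9 pairs, 2_10 in 5, 2_9 and 2_11 in 2 each, 2_19 in 1 and 2_14 in none.

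Beta glucosidase 2_9 was highest in early endodormancy and lowest in March. It had 130.2, 128 and 134 CPM on October 17, 191, 182 and 197 CPM on December 8, and 131, 152 and 153 CPM on January 3. It then had 107, 100.97 and 104 CPM on January 15, 98.8, 85.5 and 95.6 CPM on February 12, and 79.1, 72.6 and 72.2 CPM on March 12. Ordered by level, the dates ran December 8, January 3, October 17, January 15, February 12 and March 12, and only the libraries of January 3 and October 17 overlapped between neighbours in that order. February 12 did not pass against January 15 (log2 fold change -0.15, SE 0.07, adjusted p = 0.0948 by edgeR's quasi-likelihood test). The replicates lay close together, with an SD of 2.84 to 12.1 CPM around means of 74.6 to 190.2 CPM.

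The pairs of dates called for 2_9 were February 12 and March 12, each against December 8. It averaged 93.3 ± 6.92 CPM on February 12 and 190.2 ± 7.69 CPM on December 8 (SD, n = 3 each), which is 2.04-fold lower in February (log2 fold change -1.03, SE 0.07, adjusted p = 6.94e-09 by edgeR's quasi-likelihood test over 18 libraries). Against December 8, 1 of 6 members was called on February 12, with 17.7% of all genes called in either direction. This call sits at the fold threshold: without December 8 replicate 3 the log2 fold change was -0.99986, and without February 12 replicate 2 it was -0.97, so it was no longer called, while the adjusted p stayed at or under 1.44e-07 in all fits that left out 1 library. March 12 averaged 74.6 ± 3.88 CPM, 2.55-fold lower than December 8 (log2 fold change -1.35, SE 0.07, adjusted p = 3.61e-11).

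Beta glucosidase 2_10 ran differently, being highest on February 12. It had 20.03, 23.1 and 21.8 CPM on October 17, 31.8, 28.04 and 26.9 CPM on December 8, and 31.8, 28.2 and 28.97 CPM on January 3. It had 27.4, 54.1 and 36.6 CPM on January 15, 39.1, 72.2 and 49.8 CPM on February 12, and 13.04, 10.9 and 18.7 CPM on March 12. The spread was widest on January 15 (39.4 ± 13.6 CPM) and February 12 (53.7 ± 16.9 CPM; SD, n = 3 each), and on both dates replicate 2 was highest. February 12 replicate 2 was also among the 3 libraries with the lowest share of uniquely mapped reads in the study. All 3 March libraries lay below all 15 others, and the 3 October libraries lay below the other 12.

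Beta glucosidase 2_11 followed the same order of dates at a lower count. It had 6.62, 5.89 and 5.48 CPM on October 17, 9.28, 7.54 and 8.56 CPM on December 8, and 9.41, 8.97 and 7.33 CPM on January 3. It had 8.33, 13.6 and 8.81 CPM on January 15, 11.7, 15.8 and 11.7 CPM on February 12, and 5.51, 5.25 and 5.33 CPM on March 12. Replicate 2 was again highest on January 15 and February 12. The March and October libraries overlapped, and all 6 of them lay below the 12 libraries of the endodormancy dates.

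**Figure D1:**
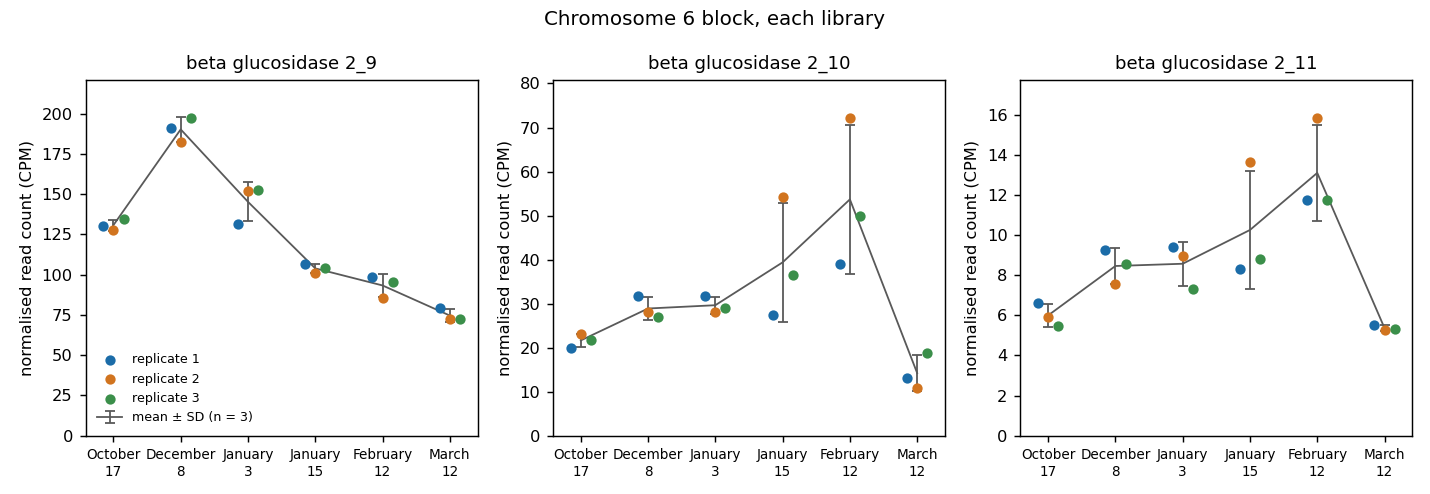
Normalised read count (CPM, linear axis from 0, a separate scale for each gene) of the 3 chromosome 6 members by date, with 1 point per library coloured by replicate number and a line through the date means with their SD (n = 3). Beta glucosidase 2_9 was highest on December 8 at a mean of 190.2 CPM, whereas 2_10 and 2_11 were highest on February 12 at means of 53.7 and 13.1 CPM.

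Both 2_10 and 2_11 were higher in late endodormancy than at dormancy onset and fell in March. Against October 17, 2_10 was 2.47-fold higher on February 12 (log2 fold change 1.30, SE 0.23, adjusted p = 0.00013) and 2_11 was 2.19-fold higher (1.13, SE 0.18, adjusted p = 5.98e-05, both by edgeR's quasi-likelihood test). The call of 2_11 sits at the fold threshold, with 0.97 and no call when February 12 replicate 2 was left out. With 2_15, which was lower, 3 of 6 members were called in this comparison, where 20.4% of all genes were. Of the steps between successive dates that make up this rise, none passed the fold threshold for either gene. The next step was steep: against February 12, 2_10 was 3.77-fold lower on March 12 (log2 fold change -1.92, SE 0.24, adjusted p = 2.46e-06) and 2_11 was 2.43-fold lower (-1.28, SE 0.19, adjusted p = 1.56e-05). Without February 12 replicate 2, the highest library for both, the values were -1.64 and -1.13 and both calls held.

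Beta glucosidase 2_10 was also called lower on March 12 against December 8 (log2 fold change -1.03, SE 0.24, adjusted p = 0.00135), January 3 (-1.07, SE 0.24, adjusted p = 0.000845) and January 15 (-1.48, SE 0.24, adjusted p = 3.49e-05). Of all genes, 27%, 30.2% and 25.2% were called in these comparisons, and the members called numbered 3, 2 and 2. The call of 2_10 against December 8 was lost without December 8 replicate 1 (-0.95) or March 12 replicate 2 (-0.87), and that against January 3 without March 12 replicate 2 (-0.91). In those comparisons 2_11 had log2 fold changes of -0.66, -0.68 and -0.95, which did not reach the fold threshold. That 2_10 was called in 5 pairs of dates and 2_11 in 2 does not show that they differ.

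Whether members of a block changed unequally was tested on the ratio of their counts within each library, where library size cancels. The log2 of that ratio, with 0.5 added to each count, was compared over the 6 dates with a permutation test (100000 permutations of the date labels, 18 libraries, one-way F statistic), with p adjusted over the 6 pairs of members in both blocks. A pair of single dates, 3 against 3 libraries, could not go below p = 0.10 in an exact permutation test, so the dates are described by their ratios.

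In the chromosome 6 block, 2_9 parted from both other members. The count ratio of 2_9 over 2_10 was 6.04 on October 17 and 6.59 on December 8, 4.89 on January 3, 2.74 on January 15, 1.79 on February 12 and 5.36 on March 12 (geometric means, n = 3 each). It was 3.68-fold lower on February 12 than on December 8, and it differed over the dates (permutation p = 0.00069, adjusted p = 0.0017). The libraries of February 12 ranged from 1.18 to 2.53 and those of December 8 from 6.02 to 7.33, without overlap. The ratio was lower in replicate 2 than in the other replicates on both January 15 and February 12.

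The count ratio of 2_9 over 2_11 was 21.8 on October 17 and 22.5 on December 8, 16.9 on January 3, 10.4 on January 15, 7.17 on February 12 and 13.8 on March 12. It differed over the dates (permutation p = 4e-05, adjusted p = 0.00024), and was 3.13-fold lower on February 12 than on December 8. In both ratios the January 15 libraries lay below all January 3 libraries, and the March libraries lay above all February libraries.

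Beta glucosidase 2_10 and 2_11 kept a nearer ratio. It was 3.6 on October 17 and 3.41 on December 8, 3.46 on January 3, 3.78 on January 15, 4.0 on February 12 and 2.57 on March 12. The difference over the dates did not pass (permutation p = 0.0743, adjusted p = 0.0743), and the libraries of all successive dates overlapped. The March ratios were 2.36, 2.07 and 3.49, and without March 12 replicate 3, the one near the other dates, the permutation test passed (adjusted p = 0.00998). It also passed without February 12 replicate 1 (permutation, adjusted p = 0.0494), and these were the only 2 of 18 fits leaving out 1 library that passed. Without March 12 replicate 1 or replicate 2 the adjusted p of the permutation test was 0.252 and 0.319. With a Kruskal-Wallis statistic on all 18 libraries it was 0.321. The 3 March libraries therefore do not settle whether the 2 genes dropped equally.

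Over the 18 libraries, log2(CPM + 1) of 2_10 and 2_11 had a Pearson r of 0.93, given as a description without a test. Among the 26247 other genes tested, 2_10 was the gene most like 2_11 (rank 1), and 2_11 was rank 2 for 2_10. After the mean of each date was taken out, r was 0.70 among replicates, which share library and scaling factor. Replicate 2 was highest for both genes on January 15 (54.1 and 13.6 CPM) and February 12 (72.2 and 15.8 CPM). Replicate 1 was highest for both on December 8 and January 3. On October 17, replicate 1 was lowest for 2_10 (20.03 CPM) and highest for 2_11 (6.62 CPM). On March 12, 2_10 had 10.9 to 18.7 CPM and 2_11 had 5.25 to 5.51 CPM. How far the r of 0.70 rests on single libraries was not tested. For 2_9 the r was 0.12 with 2_10 and 0.04 with 2_11, and -0.56 and -0.48 within dates.

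In the chromosome 4 block, beta glucosidase 2_15, the coniferin beta-glucosidase by description, changed most. It had 2.57, 1.94 and 2.37 CPM on October 17, 0.327, 0.643 and 0.188 CPM on December 8, and 0.0636, 0.476 and 0.436 CPM on January 3. It had 0.315, 0.424 and 0.941 CPM on January 15, 0.544, 1.47 and 0.678 CPM on February 12, and 2.27, 3.06 and 2.81 CPM on March 12. These levels rest on few reads, with 28 to 35 counts per library in October and March and 1 to 16 in the endodormancy libraries. All 6 October and March libraries lay above all 12 others, and the October and March libraries overlapped.

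The fall of 2_15 into endodormancy was 5.86-fold on December 8 against October 17 (log2 fold change -2.55, SE 0.50, adjusted p = 0.000496). It was the 1 member of 6 called in that comparison, in which 15.1% of all genes were called. Against October 17 it was also lower on January 3 (log2 fold change -2.86, SE 0.51), January 15 (-2.09, SE 0.46) and February 12 (-1.38, SE 0.44), with adjusted p of 0.000166, 0.0011 and 0.0146. The February call was lost without February 12 replicate 1 (-1.07, adjusted p = 0.0762) or replicate 3 (-1.24, adjusted p = 0.056). Of all genes, 17.7% and 17% were called on the 2 January dates, where 2_15 was the only member called.

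The return of 2_15 was seen in March. It was 3.09-fold higher on March 12 than on February 12 (log2 fold change 1.63, SE 0.44, adjusted p = 0.00444). Without February 12 replicate 2, its highest endodormancy library, the log2 fold change was 2.15. March 12 was also higher than December 8 (log2 fold change 2.8, SE 0.50), January 3 (3.10, SE 0.51) and January 15 (2.34, SE 0.46), with adjusted p at or under 0.000244. February 12 was 2.78-fold higher than January 3, where 1 library had a single count (1.48, SE 0.58, adjusted p = 0.0434 by edgeR's quasi-likelihood test). It was the only member called there, with 16% of all genes called. This call was lost in 8 of 18 fits that left out 1 library, in 6 of them with an adjusted p of 0.05005 to 0.0525 and a log2 fold change of 1.48. Without January 3 replicate 1 it was 0.92 (adjusted p = 0.193) and without February 12 replicate 2 it was 0.95 (adjusted p = 0.233). March 12 against October 17 gave 0.25 (95% interval -0.58 to 1.07, adjusted p = 0.622), so a difference between the first and last date was not detectable at this depth.

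Beta glucosidase 2_14 moved within a narrower range. It had 12.8, 12.9 and 13.4 CPM on October 17, 14.7, 16.6 and 15.2 CPM on December 8, and 9.22, 11.03 and 11.6 CPM on January 3. It had 11.9, 9.24 and 10.1 CPM on January 15, 10.0, 8.47 and 7.65 CPM on February 12, and 10.4, 10.8 and 11.7 CPM on March 12. The December libraries lay above all others and the October libraries came next, while the libraries of the other 4 dates overlapped except those of March 12, which lay above those of February 12. Its furthest pair of dates was February 12 against December 8 (log2 fold change -0.82, 95% interval -1.09 to -0.55, adjusted p = 5.9e-05), and no pair reached the fold threshold.

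Beta glucosidase 2_19 was set apart by a low February. It had 8.36, 6.96 and 5.27 CPM on October 17, 6.27, 7.17 and 7.43 CPM on December 8, and 5.47, 5.63 and 6.72 CPM on January 3. It had 6.44, 5.94 and 7.44 CPM on January 15, 4.66, 3.59 and 3.68 CPM on February 12, and 10.0, 7.44 and 6.98 CPM on March 12. The 3 February libraries lay below all 15 others, which overlapped between every pair of neighbouring dates in order of level.

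March 12 against February 12 was the only pair of dates called for 2_19. It averaged 8.15 ± 1.65 CPM on March 12, against 3.98 ± 0.590 CPM on February 12 (SD, n = 3 each), which is 2.03-fold higher in March (log2 fold change 1.02, SE 0.19, adjusted p = 0.0002 by edgeR's quasi-likelihood test). This call also sits at the fold threshold. It was lost without February 12 replicate 2 (0.95), February 12 replicate 3 (0.95) or March 12 replicate 1 (0.82), with adjusted p no higher than 0.00244. February 12 against January 15 had a log2 fold change of -0.71 (SE 0.19, adjusted p = 0.00694), short of the threshold.

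**Figure D2:**
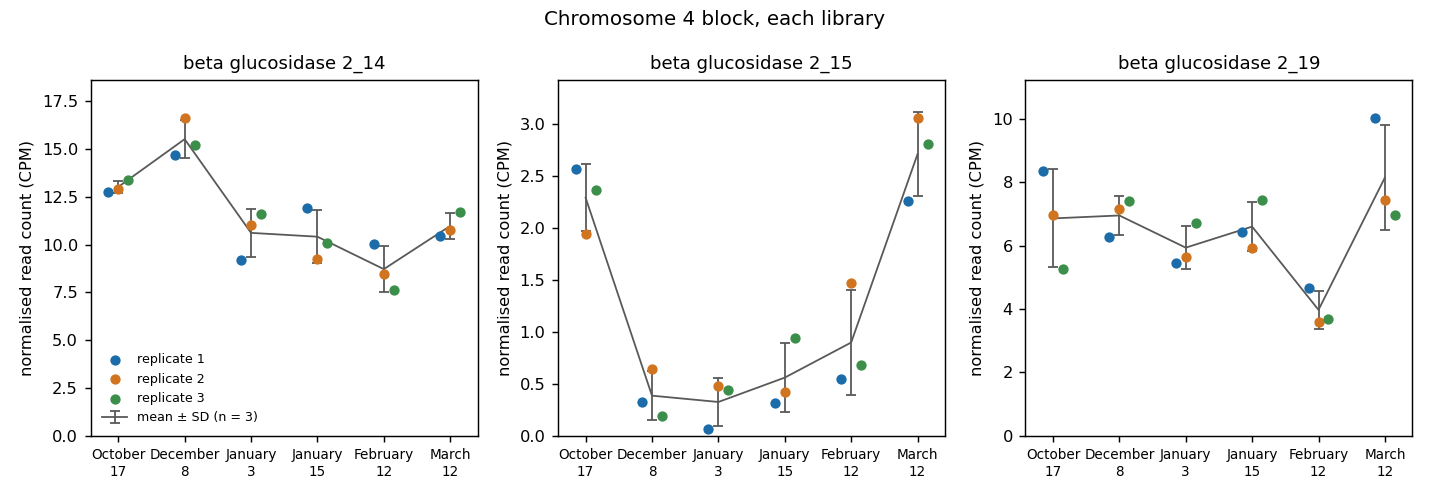
Normalised read count (CPM, linear axis from 0, a separate scale for each gene) of the 3 chromosome 4 members by date, with 1 point per library coloured by replicate number and a line through the date means with their SD (n = 3). Beta glucosidase 2_15 averaged 2.29 CPM on October 17 and 2.71 CPM on March 12 and at most 0.899 CPM between them, 2_14 was highest on December 8 at 15.5 CPM, and 2_19 was lowest on February 12 at 3.98 CPM.

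The ratios within the chromosome 4 block differed over the dates for all 3 pairs. The count ratio of 2_14 over 2_15 was 5.64 on October 17 and 40.1 on December 8, 36.97 on January 3, 19.4 on January 15, 10.1 on February 12 and 4.02 on March 12 (permutation p = 0.00085, adjusted p = 0.0017). It was 9.97-fold lower on March 12 than on December 8, or 6.81-fold lower with 3 counts added to each gene in place of 0.5, since the winter counts of 2_15 were low. Of the 12 endodormancy libraries, 11 lay above every October library, the exception being February 12 replicate 2.

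The count ratio of 2_15 over 2_19 was 0.341 on October 17 and 0.0555 on December 8, 0.0482 on January 3, 0.0809 on January 15, 0.215 on February 12 and 0.338 on March 12 (permutation p = 0.00194, adjusted p = 0.00291). It was 7.09-fold lower on January 3 than on October 17, or 4.39-fold lower with 3 counts added. That fold was 4.25 without January 3 replicate 1, the library with a single count of 2_15, and 9.73 without January 3 replicate 2. The count ratio of 2_14 over 2_19 varied less, being 1.93 on October 17 and 2.23 on December 8, 1.78 on January 3, 1.57 on January 15, 2.18 on February 12 and 1.36 on March 12 (permutation p = 0.0207, adjusted p = 0.0249). The last result was not stable. Its adjusted p was 0.0502 to 0.0606 without any 1 of December 8 replicate 1, December 8 replicate 2, February 12 replicate 2 or March 12 replicate 1. It was 0.136 without the 3 libraries that had the lowest share of uniquely mapped reads in the study. Those libraries were December 8 replicate 1, January 3 replicate 2 and February 12 replicate 2.

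**Figure D3:**
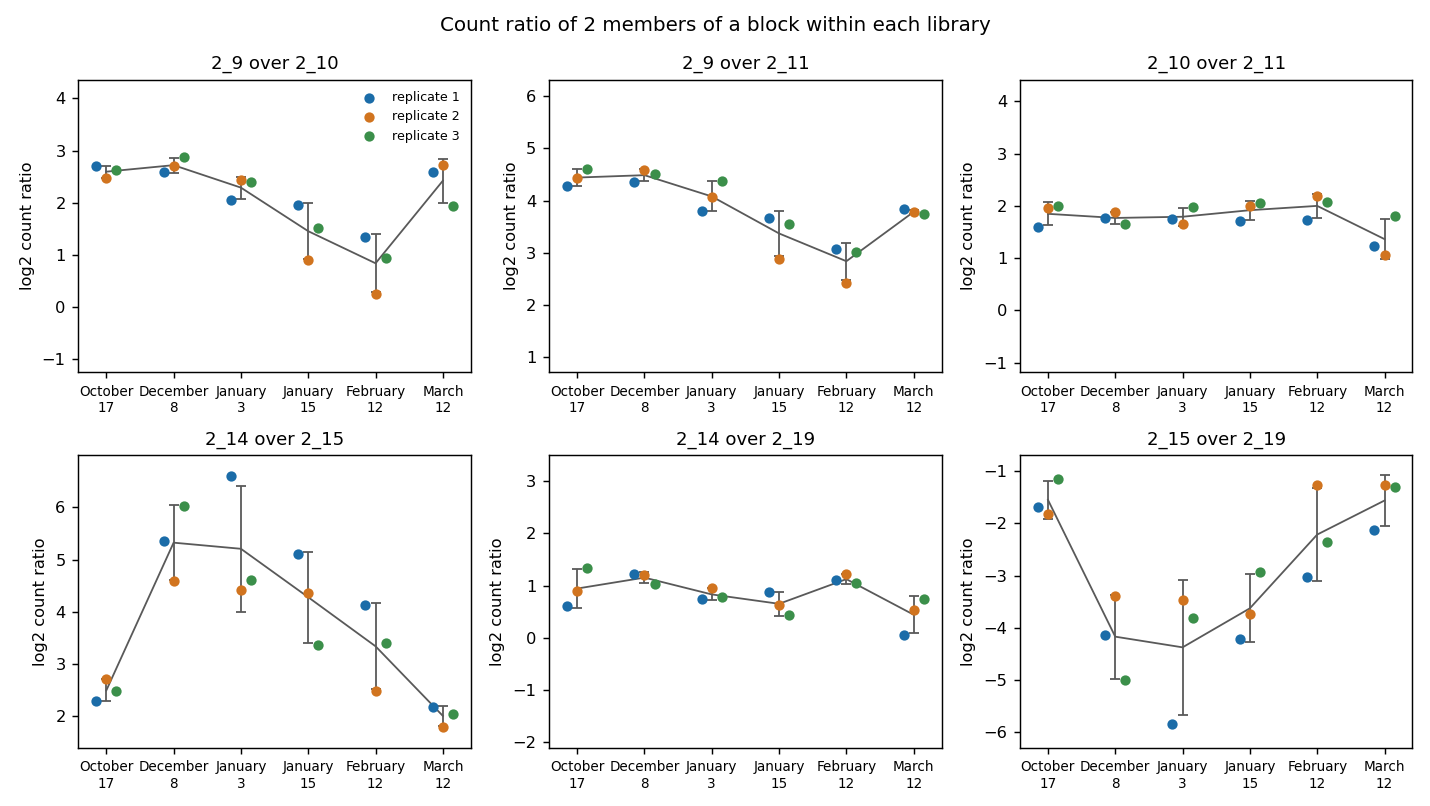
Log2 of the count ratio of 2 members of a block within each library, by date, for the 3 pairs of the chromosome 6 block (top) and the 3 pairs of the chromosome 4 block (bottom). Points are libraries coloured by replicate number, the line joins date means with their SD (n = 3), and every panel spans the same number of log2 units. The ratio of 2_10 over 2_11 stayed between 2.57 and 4.0 at the date means, whereas that of 2_14 over 2_15 ranged from 4.02 to 40.1.

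Correlations within the chromosome 4 block were lower than that of 2_10 with 2_11. Over the 18 libraries, r of log2(CPM + 1) was 0.54 for 2_14 with 2_19, 0.29 for 2_15 with 2_19 and 0.02 for 2_14 with 2_15. Across blocks, 2_9 and 2_14, both highest on December 8, had an r of 0.67.

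Between successive dates of endodormancy no member was called, nor were most genes. On January 3 against December 8, on January 15 against January 3 and on February 12 against January 15, none of the 6 members was called, with 10.4%, 4.4% and 11% of all genes called. DESeq2 also called none in these 3 comparisons, and the members with an unadjusted p under 0.05 by edgeR's quasi-likelihood test numbered 2, 1 and 2. Beta glucosidase 2_9 accounted for 1 of them each time, with log2 fold changes of -0.39, -0.48 and -0.15 (adjusted p = 0.000304, 9.09e-05 and 0.0948 by the same test). The others were 2_14 on January 3 (-0.55, adjusted p = 0.00256) and 2_19 on February 12 (-0.71, adjusted p = 0.00694). By adjusted p alone, with no fold threshold, the members numbered 2, 1 and 1, beside 37.4%, 25.4% and 40% of all genes. Over the whole of that time, February 12 against December 8, 5 of 6 members had an adjusted p under 0.05 with no fold threshold, as had 46% of all genes.

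The step to March involved both blocks. On March 12 against February 12, 4 of 6 members were called, 2_15 and 2_19 higher and 2_10 and 2_11 lower, where 24.4% of all genes were called, 14.7% higher and 9.66% lower. All 3 chromosome 6 members had negative and all 3 chromosome 4 members positive log2 fold changes, beside a median of 0.0048 for all genes. Whether the blocks differ in direction was not tested. The members short of the fold threshold were 2_9 (-0.32, SE 0.07, adjusted p = 0.000965) and 2_14 (0.32, SE 0.13, adjusted p = 0.0491). The adjusted p of 2_14 was 0.235 at most when 1 library was left out.

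From the first date to the last, March 12 against October 17, none of the 6 members was called, with 20.9% of all genes called. DESeq2 called none either. By edgeR's quasi-likelihood test 2 members had an adjusted p under 0.05 but were short of the fold threshold, as 53.4% of all genes had such a p. These were 2_9 (log2 fold change -0.81, 95% interval -0.96 to -0.66, adjusted p = 4.03e-08) and 2_10 (-0.61, 95% interval -1.13 to -0.10, adjusted p = 0.0424). The adjusted p of 2_10 was 0.174 at most when 1 library was left out. The other 4 lay between -0.25 and 0.26.

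**Figure D4:**
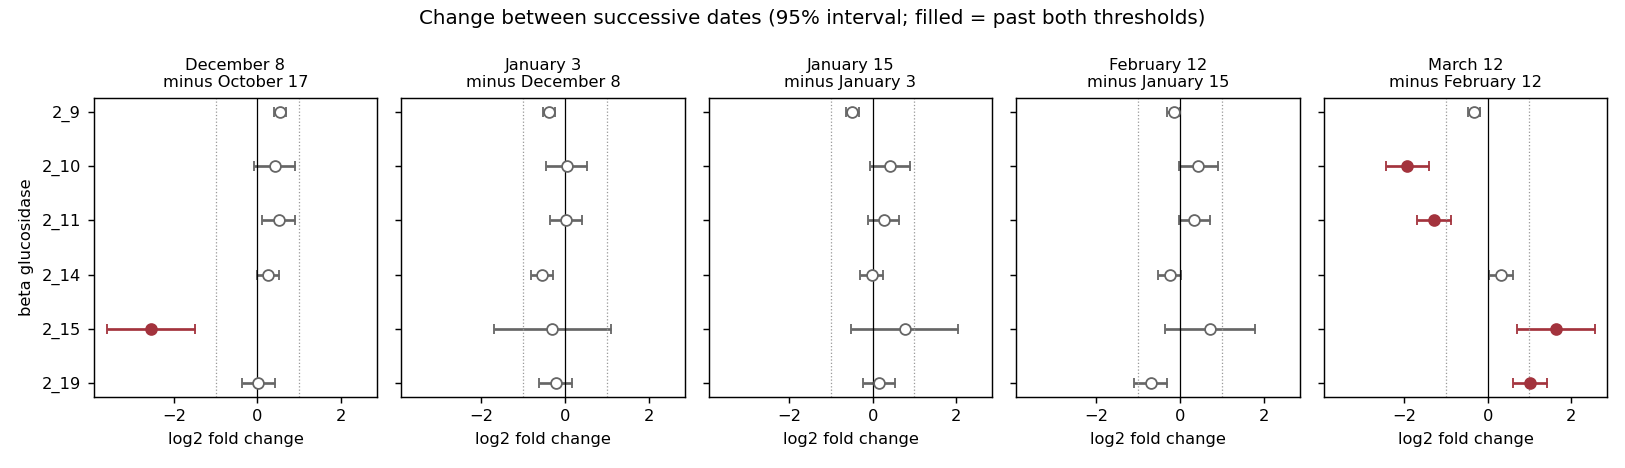
Log2 fold change of each member between successive dates, the later minus the earlier date, with its 95% interval from edgeR's fit over 18 libraries (x axis, log2 units; members down the page). Filled points passed both thresholds and dotted lines mark a log2 fold change of 1 in either direction. Filled points are seen for 2_15 on December 8 against October 17, and for 2_10, 2_11, 2_15 and 2_19 on March 12 against February 12.

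Other candidates with a beta-glucosidase or hydrolase annotation lie between or beside the members. Of the beta-glucosidase candidates between 2_15 and 2_14, PAV04g0211151 had no count in any of 18 libraries and PAV04g0211131 had 1 count in all. With 3 counts as the limit that a count of 0 allows, PAV04g0211151 was under 0.0126 CPM over all libraries, counting error only. The candidate named cation-chloride co-transporter 1 (PAV04g0211141), in the same run of identifiers, also had 0 counts.

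GH-like_15 (PAV04g0211161), next to 2_14, had 20 to 55 counts per library and did not pass the 6-date test (adjusted p = 0.273). GH-like_12 (PAV06g0285761), next to 2_11, had 7 to 43 counts and was called higher on February 12 (log2 fold change 1.38, SE 0.34, adjusted p = 0.00262) and on March 12 (1.17, SE 0.35, adjusted p = 0.00879), each against October 17. Unlike 2_11, with -1.28 on March 12 against February 12, GH-like_12 had -0.20 (SE 0.32, adjusted p = 0.612), and this difference between the genes was not tested. Its r over the 18 libraries was 0.36 with 2_11, 0.24 with 2_10 and -0.60 with 2_9.

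Among the study's candidates, those with the level pattern most like each member were as follows. For 2_9 they were PECTINESTERASE-like_5, of a family that removes methyl esters from cell wall pectin, and GH17_13, of the family that holds the callose-degrading glucanases (r = 0.85 each over 18 libraries). For 2_10 and 2_11, after each other, it was CELLULOSE SYNTHASE-like E1_4 (r = 0.85 and 0.90). For 2_14 they were the aquaporin PIP1B3 (r = 0.88) and Carbohydrate-binding X8_6 (r = 0.83).

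For 2_15 they were CELLULOSE SYNTHASE-like D4_1 (r = 0.90) and cell wall invertase 4_1, which splits sucrose outside the cell (r = 0.89). For 2_19 they were GH17_35 and GH17_10 (r = 0.85 each). These are descriptions over libraries that share date, and the number of genes that were nearer varied by member. PECTINESTERASE-like_5 ranked only 243 among all genes for 2_9, and D4_1 ranked 99 for 2_15. E1_4 ranked 95 for 2_10 and 21 for 2_11, PIP1B3 ranked 10 for 2_14 and GH17_35 ranked 6 for 2_19.

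The wider GH1 family gives the setting. Of 131 identifiers with a GH1 annotation in the study's list, 33 passed the filter, 5 of them members here, and 31 of the 33 were called for 1 or more pairs of dates (93.9%, against 54.3% of all genes). Of 19 genes named beta glucosidase 2, 9 passed the filter, among them all 6 members. Of these 9, 8 were called (88.9%), 5 of them members, so this share largely describes the members themselves. The GH1 genes were chosen by annotation, and no set test was made.

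On December 8 against October 17, none of the 33 GH1 genes was called higher and 10 were called lower, where 3.49% and 11.6% of all genes were, and their median log2 fold change was -0.50 beside -0.04 for all genes. Beta glucosidase 2_15 was among the 10. The log2 fold changes of 2_9, 2_10, 2_11 and 2_14 were 0.54, 0.42, 0.51 and 0.25, and none of these was called. Their adjusted p by edgeR's quasi-likelihood test was 7.15e-06, 0.161, 0.0375 and 0.12. On January 3 against December 8, 7 GH1 genes were called higher and 3 lower, where 6.33% and 4.05% of all genes were. On January 15 against January 3 they numbered 9 and 1, beside 2.91% and 1.49% of all genes, and on February 12 against January 15, 1 and 5, beside 7.1% and 3.9%. On March 12 against February 12 they numbered 9 and 8, beside 14.7% and 9.66%. At that last step 2_15 was among the 9 and 2_10 and 2_11 among the 8, while 2_19, with no GH1 entry, was not counted.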

How the data were processed

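The deposited values are raw counts of reads per gene: the authors used Trimmomatic 0.36 for trimming, STAR for alignment to the 'Regina' genome and HTSeq for counting, whose multi-read setting is not given in the sources used here. Counts of near-identical copies are therefore uncertain. The main test was edgeR 4.0.16 (R 4.3.3) by quasi-likelihood with TMM factors and 1 mean for each date, leaving 12 residual degrees of freedom. The filter asked for a mean count of 3 or more and zeros in at most 75% of libraries, and p-values were adjusted over 26248 genes. Ratios were permuted in Python 3.11.15 with numpy 2.4.6, and r was computed on log2(CPM + 1). Named genes were the 6 members, 5 neighbouring candidates and, per member, the 2 candidates of highest r. Members and lists were chosen with earlier results of these data known. In simulated data for December 8 against October 17 (26248 genes), 86 of 100 genes changed 3-fold and 92 of 100 changed 6-fold were recovered, with 6 false calls. All other genes were simulated without change and no smaller fold was planted, so the reliability of calls near the fold threshold was not measured. Alternatives were DESeq2 1.42.0, other normalizations, filters, pseudocounts and statistics, a replicate block, no fold threshold, the compared dates alone, and leaving out libraries. No identifier (0 of 48133) matched the RefSeq table, so no sequences or coordinates are given, and the flower bud label was not checked against markers.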

Additional observations from a re-analysis of the deposited data

How the results depend on the processing

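With no fold threshold, members called numbered 3 on December 8 against October 17 (43.1% of all genes), 2 on January 3 against December 8 (37.4%), 1 on January 15 against January 3 (25.4%), 1 on February 12 against January 15 (40%), 6 on March 12 against February 12 (55.6%), 5 on February 12 against December 8 (46%) and 2 on March 12 against October 17 (53.4%). Leaving out 1 library gave 0 to 2 members called on February 12 against December 8, with 2 only without February 12 replicate 1, where 2_10 joined at 1.08. It gave a range of log2 ratios between the furthest dates of 0.48 to 0.86 for 2_10 over 2_11, past the threshold without February 12 replicate 1 (adjusted p = 0.0494) or March 12 replicate 3, and of 0.52 to 0.86 for 2_14 over 2_19. When the 3 libraries of lowest mapping share were left out together, 2_14 over 2_19 had 0.68 (permutation, adjusted p = 0.136). The call of 2_19 on March 12 against February 12 was also lost with no filter (0.99) and without those 3 libraries (0.94). Without them, February 12 was also not called for 2_11 against October 17 (0.97) or for 2_15 against January 3 (1.41, adjusted p = 0.15).

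Whether replicate numbers pair the libraries is not stated by the study and was not settled here. The deviations of same-numbered libraries had r of -0.39 to 0.53, over 0.1 in 7 of 45 pairs. For libraries of other numbers r was -0.50 to 0.38, and 9 of 18 libraries correlated best with their own number. The replicate block changed none of the 19 calls of members over the 15 pairs of dates and added none, and with permutation within it the 2_10 over 2_11 ratio (0.64) passed (adjusted p = 0.0464).

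Directions reversed only for values that were not called, and not all of these were near 0 in the main fit. For 2_10 on January 3 against December 8 the log2 fold change was -0.00285 with DESeq2, -0.00388 with its size factors, -0.00623 with upper quartile, -0.0313 with no filter, -0.0235 with a mean count of at least 10, -0.0443 with the 2 dates alone and -0.0266 to 0.11 when 1 library was left out. For 2_11 these were -0.0205, -0.0204, -0.0224, -0.0470, -0.0399, -0.0610 and -0.0561 to 0.12, and -0.00601 without the 3 libraries. For 2_14 on January 15 against January 3 it was 0.0166 with no filter, 0.000871 with a mean of at least 10, 0.0436 without the 3 libraries, 0.00394 with the dates alone and -0.14 to 0.062 when 1 library was left out. Leaving out 1 library also gave -0.00587 to 0.40 for 2_11 on January 15 against January 3, -0.73 to 0.25 for 2_15 on January 3 against December 8 and -0.14 to 0.18 for 2_19 on December 8 against October 17. The main fit had 0.27, -0.31 and 0.024 for these. The cause was not tested.

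Depth limits 2_15 most, with 1 to 35 counts per library. Whether single libraries are outliers was not tested.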
